A study of Mus musculus with 4 samples.

Results

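The peaks described here are the ubH2A peaks that lie near promoters in mES cells, mouse embryonic stem cells of the line E14. A peak was taken when any base of it lay within 4 kb of an annotated transcription start site (TSS) of a protein-coding gene, and 817 of the 6642 ubH2A peaks analysed (12.3%) met this rule. The start of every annotated transcript of such a gene counts as a TSS, so some TSSs lie far inside a gene. The series compares where Dzip3, Ring1B and H2A ubiquitylation are found in the genome of cells kept pluripotent, with 1 ChIP-seq library each for ubH2A, Ring1B and Dzip3 and 1 library of input DNA. All 4 came from the same kind of culture, E14 cells of the 129/Ola strain at passages 3-5, grown without feeders in N2B27 medium with 1 µM PD0325901, 3 µM CHIR99021 (together called 2i) and 1000 U/ml LIF and fixed in 1% formaldehyde. No library comes from a knockdown, a serum culture or a control immunoprecipitation, and no target has a second library. RNA is not among these 4 libraries, so the identity of the cells was not checked here. With 1 library for each target there is no replicate error, so no comparison below has a test, and the 95% Wilson intervals given with shares cover counting error only. They take peaks as independent draws, although many peaks lie side by side in arrays of like genes, so they can be too narrow. The library sizes implied by the listed heights were between 48.3 M and 67.0 M reads, where M stands for 1000000. These sizes are above the depth given in the methods of the study, and all read densities below rest on them. A row that runs into a later one hides the ubH2A peaks of chromosome 1 beyond 85281399, of chromosome 10 and of chromosome 11 before 119891698 (mm9). Counts of genes with a ubH2A peak leave out the genes there, while each Ring1B and Dzip3 peak lists its own overlap with ubH2A peaks and its ubH2A reads on every chromosome.

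H2A carrying a single ubiquitin (ubH2A) is a histone mark placed by the Polycomb repressive complex PRC1, whose catalytic subunit in mES cells is mainly Ring1B. In these cells PRC1 sits at CpG islands of silent developmental genes, such as the Hox clusters and the genes of lineage transcription factors. Dzip3 is another ubiquitin ligase that can modify H2A. A peak here is a stretch in which the reads of a library pile up, and the fold over input is the ratio of ubH2A to input DNA reads in it. For brevity, the reads of a library in a peak per 1000000 reads of that library (RPM), divided by the length of the peak in kb, are called the read density.

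The sequences of 5 of these peaks are shown first, as examples of sequence found under the mark. They are of the plus strand of mm9, with each CpG in capitals. The 5 are not in proportion to the set. Of the 817 peaks, 148 (18.1%) held at least 3 CpG per 100 bases and 403 (49.3%) were mostly repeated sequence. An input peak overlapped 207 (25.3%), but none of the 5 shown. The peak in Dyrk4 (chr6:126854521-126854751) was the highest without an input peak and consists of repeated sequence, while the one before Csf2ra (chr19:61304523-61304772) was single-copy and also a Ring1B and a Dzip3 peak. The peaks in the Polycomb gene Scmh1 (chr4:120200741-120200940) and in the receptor gene Grin1 (chr2:25150784-25150985) were single-copy and in the ubH2A list alone. The last is the middle 300 bases of the peak near a TSS of the developmental ligand gene Wnt7b (chr15:85408543-85408842), which was also a Ring1B peak.
Dyrk4: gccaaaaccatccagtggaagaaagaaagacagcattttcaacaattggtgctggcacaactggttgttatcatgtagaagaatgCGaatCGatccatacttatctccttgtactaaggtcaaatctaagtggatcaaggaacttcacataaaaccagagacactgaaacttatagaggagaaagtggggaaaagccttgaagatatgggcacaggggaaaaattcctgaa
Csf2ra: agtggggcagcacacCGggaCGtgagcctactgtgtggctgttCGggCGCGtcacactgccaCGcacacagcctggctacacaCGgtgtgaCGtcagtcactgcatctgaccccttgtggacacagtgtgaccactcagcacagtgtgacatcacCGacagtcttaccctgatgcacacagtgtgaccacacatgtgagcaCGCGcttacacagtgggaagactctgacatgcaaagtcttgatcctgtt
Scmh1: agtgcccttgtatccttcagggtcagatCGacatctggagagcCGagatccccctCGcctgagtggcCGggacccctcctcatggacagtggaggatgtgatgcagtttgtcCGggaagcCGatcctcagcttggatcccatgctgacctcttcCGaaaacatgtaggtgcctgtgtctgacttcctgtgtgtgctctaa
Grin1: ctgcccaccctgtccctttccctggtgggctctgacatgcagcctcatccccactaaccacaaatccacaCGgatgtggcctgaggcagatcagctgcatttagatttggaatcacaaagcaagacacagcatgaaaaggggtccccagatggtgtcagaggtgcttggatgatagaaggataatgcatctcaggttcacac
Wnt7b: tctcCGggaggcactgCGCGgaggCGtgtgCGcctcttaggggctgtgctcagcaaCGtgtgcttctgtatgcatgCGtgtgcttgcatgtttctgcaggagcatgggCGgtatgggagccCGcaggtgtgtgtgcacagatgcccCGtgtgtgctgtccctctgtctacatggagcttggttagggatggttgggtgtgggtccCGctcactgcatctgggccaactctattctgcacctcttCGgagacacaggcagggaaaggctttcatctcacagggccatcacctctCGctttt
The Dyrk4 stretch holds 2 CpG in 231 bases and the Grin1 stretch 1 in 202, against 11 in 250 for Csf2ra, 7 in 200 for Scmh1 and 13 in 300 for Wnt7b.

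The ubH2A promoter peaks were mostly short and low. Their median length was 279 bp, with quartiles of 209 and 356 bp, and their median height was 38 extended reads, or 0.567 RPM, where the list starts at 32. Of the 817 peaks, 356 (43.6%, 40.2% to 47.0%) had a height of 32 to 36 extended reads, against 34.7% of the 5825 ubH2A peaks elsewhere (33.5% to 35.9%). The median peak held 82 ubH2A reads, 47 Ring1B reads, 46 Dzip3 reads and 9 input reads, and the quartiles were 68 and 112, 25 and 87, 24 and 84, and 4 and 33. In read density the medians were 4.73 for ubH2A, 3.29 for Ring1B, 3.26 for Dzip3 and 0.714 for input DNA. The median fold over input was 5.73 (quartiles 2.01 and 12.2), against 4.61 elsewhere. The fold was at least 2 in 616 peaks (75.4%), where the background over all ubH2A peaks is 74.9%, and it was below 1 in 46. The listed fold equals the ubH2A reads plus 1 over the scaled input reads plus 1, which gave every listed value within 1%. A peak with 0 input reads, as in 50 of the 817, therefore has a fold of its reads plus 1, which is set by that added read.

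The 817 peaks lay within 4 kb of a TSS of 640 protein-coding genes. That is 3.37% of the 18970 genes in the part of the genome where the ubH2A list is complete, against 9.73% for Ring1B and 2.98% for Dzip3. With the most upstream TSS of each gene alone, 402 genes had a ubH2A peak. At Akap9, Cacna1a and Dyrk4, for example, the TSS near the peak was a start inside the gene. A single peak was found for 533 of the genes, and 25 genes had 5 or more. Of the 640 genes, 251 (39.2%, 35.5% to 43.1%) also had a Ring1B peak within 4 kb and 216 (33.8%, 30.2% to 37.5%) a Dzip3 peak, and 149 had both. Seen from the other side, 13.6% of the 1846 genes with a Ring1B peak (12.1% to 15.2%) and 38.2% of the 566 genes with a Dzip3 peak (34.3% to 42.2%) also had a ubH2A peak. The just included peaks were those near Poc1a at 3999 bp and Gm3115 and Tmem181b-ps at 4000 bp, and the first left out were near Akr1b8 at 4022 bp and Dhx34 at 4031 bp.

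The ubH2A peaks were most frequent at the TSS but less gathered there than Ring1B peaks, and most lay elsewhere in the promoter window. Of the 817, 67 covered a TSS (8.20%, 6.51% to 10.3%) and 184 lay within 500 bp of one (22.5%, 19.8% to 25.5%). The same distance held 50.3% of the 3723 Ring1B promoter peaks (48.7% to 51.9%), 27.5% of the 859 Dzip3 promoter peaks (24.6% to 30.6%) and 13.8% of the 516 input peaks near promoters (11.1% to 17.0%). The median gap from peak to TSS was 1656 bp for ubH2A, 491 bp for Ring1B, 1574 bp for Dzip3 and 2176 bp for input DNA. With the centre of the peak counted in bins of 1 kb, the bin around the TSS held 150 ubH2A peaks (18.4%) and each other bin held between 47 and 102 (at most 12.5%). Without input-overlapping peaks it held 124 of 610 (20.3%). The centre was upstream of the TSS in 373 peaks and at or beyond it in 444, while for Ring1B these numbers were 1283 and 2440.

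**Figure D1:**
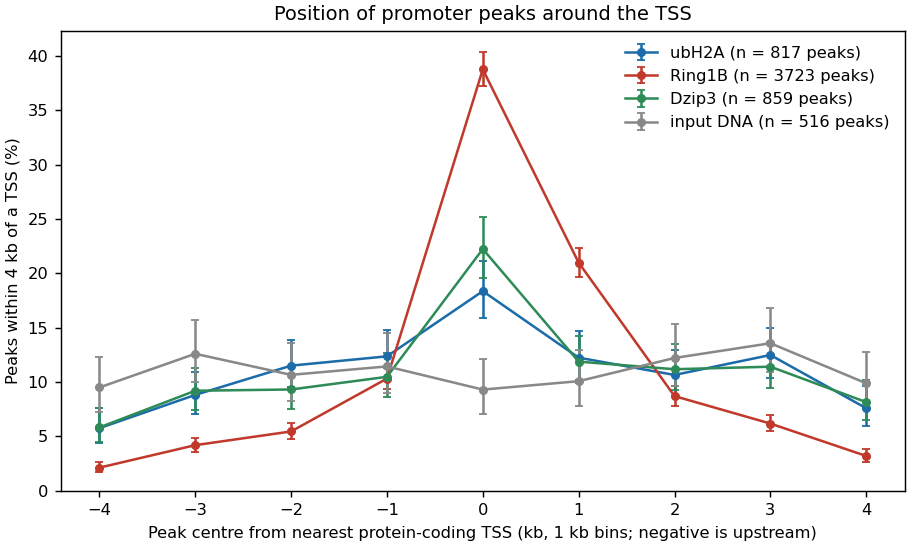
Share of the peaks within 4 kb of a TSS (y axis, percent) by the distance of the peak centre from the nearest protein-coding TSS (x axis, kb, bins of 1 kb, negative upstream), for ubH2A, Ring1B, Dzip3 and input DNA. Points are shares in 1 library each and bars are 95% Wilson intervals. The bin at the TSS holds 18.4% of ubH2A peaks, 38.8% of Ring1B peaks, 22.2% of Dzip3 peaks and 9.30% of input peaks, and the outermost bins are only partly within reach of the rule.

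The centres of 452 of the 817 peaks (55.3%, 51.9% to 58.7%) fell in introns and 132 (16.2%, 13.8% to 18.8%) in coding exons. Another 32 fell in UTRs, 29 in exons without coding sequence, and 172 (21.1%, 18.4% to 24.0%) outside annotated transcripts. Among the 67 peaks that cover a TSS, 37 overlapped a Ring1B peak (55.2%, 43.4% to 66.5%). With peaks that overlap an input peak left out, a Ring1B peak was found at 19 of 46 peaks at a TSS (41.3%, 28.3% to 55.7%), at 49 of 145 within 500 bp (33.8%, 26.6% to 41.8%) and at 104 of 465 farther away (22.4%, 18.8% to 26.4%). The intervals of the last pair did not overlap.

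A Ring1B peak overlapped 288 of the ubH2A promoter peaks (35.3%, 32.1% to 38.6%), where the background over all ubH2A peaks is 44.2%, and 45.5% of those elsewhere (44.2% to 46.8%). A Dzip3 peak overlapped 264 (32.3%, 29.2% to 35.6%), with a background of 41% and 42.3% elsewhere (41.0% to 43.5%). An input peak overlapped 207 (25.3%, 22.5% to 28.4%), with a background of 28.9% and 29.4% elsewhere (28.3% to 30.6%). The ubH2A list alone had a peak at 411 of the 817 (50.3%), against 2279 of 5825 elsewhere (39.1%). The input list starts at 15 extended reads and the ubH2A list at 32, so an input peak is reached at a lower height. In RPM the ubH2A list starts at 0.477, the Ring1B list at 0.599 and the Dzip3 list at 0.619. The median height of the ubH2A promoter peaks was 0.567 RPM. A stretch of equal height in each ChIP library can thus be in the ubH2A list alone, and the part of these limits in the overlaps was not tested. With input-overlapping peaks left out, 153 of 610 ubH2A promoter peaks overlapped a Ring1B peak (25.1%, 21.8% to 28.7%) and 122 a Dzip3 peak (20%, 17.0% to 23.4%). The shares elsewhere were then 36.6% (35.2% to 38.1%) and 31.2% (29.8% to 32.6%).

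The overlap moved with how often the sequence under the peak occurs in the genome. This was measured as the percentage of the 31-base words of a peak that are found more than once on the mm9 chromosomes. The median was 48.2% in ubH2A promoter peaks, 78.2% in those elsewhere and 0% in Ring1B promoter peaks. Among ubH2A promoter peaks with under 5% of such words, 37 of 294 overlapped a Ring1B peak (12.6%, 9.27% to 16.9%) and 13 a Dzip3 peak (4.42%, 2.60% to 7.42%). Elsewhere the shares for such peaks were 9.88% (8.27% to 11.8%) and 7.38% (5.996% to 9.06%). Among those with over 50%, 207 of 403 promoter peaks overlapped a Ring1B peak (51.4%, 46.5% to 56.2%) and 204 a Dzip3 peak (50.6%, 45.8% to 55.5%), against 56.7% (55.1% to 58.3%) and 52.9% (51.3% to 54.5%) elsewhere. Within each of these classes the intervals of promoter peaks and of the others overlapped. With input-overlapping peaks left out as well, Ring1B was found at 41.7% of the 228 repeated promoter peaks (35.5% to 48.2%) and at 51.5% of those elsewhere (49.5% to 53.5%), intervals that did not overlap. In the 287 single-copy promoter peaks the share was 11.8% (8.603% to 16.1%), against 8.65% elsewhere (7.13% to 10.5%). The part of repeated sequence in the lower overlap near promoters was not tested further.

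**Figure D2:**
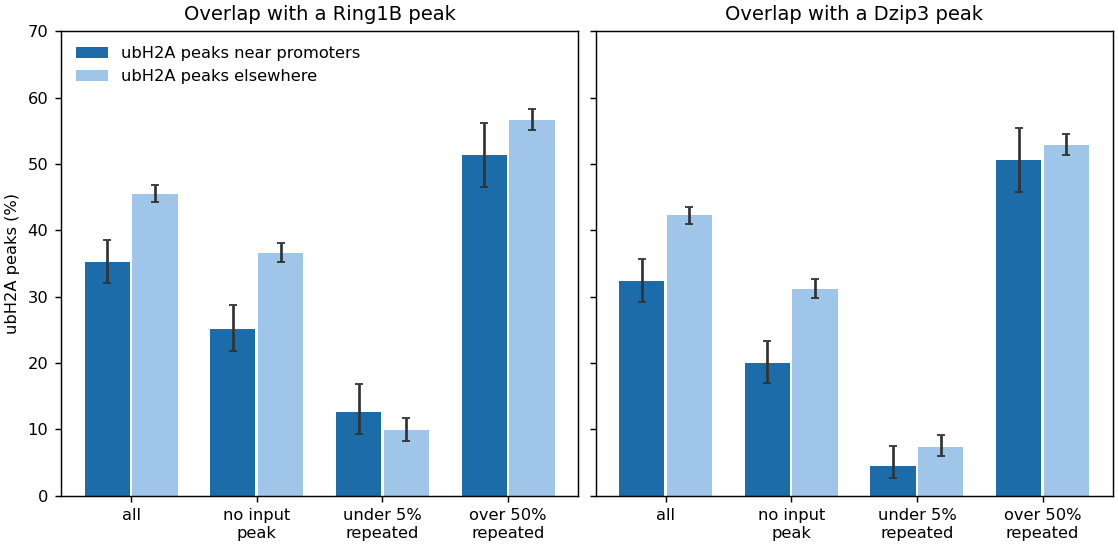
Share of ubH2A peaks (y axis, percent) that overlap a Ring1B peak (left) or a Dzip3 peak (right), near promoters (dark) and elsewhere (light), for all peaks, those without an input peak, and those with under 5% or over 50% of 31-base words found more than once. Bars are shares in 1 library each with 95% Wilson intervals. Near promoters the share with Ring1B is 12.6% in single-copy sequence and 51.4% in repeated sequence.

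The classes made by these overlaps differ in Ring1B and Dzip3 reads by their definition, while median ubH2A reads lay between 71 and 108.5 in every class but the one with all 3 other peaks. The 411 peaks without another peak held a median of 71 ubH2A, 27 Ring1B, 26 Dzip3 and 5 input reads. The 77 with a Ring1B peak alone held 84, 84, 47 and 7, the 46 with a Dzip3 peak alone 83, 43.5, 75.5 and 8, and the 76 with both 108.5, 115.5, 103.5 and 15. With an input peak, the 20 that overlapped Ring1B as well held 106.5 ubH2A, 84.5 Ring1B, 60 Dzip3 and 57.5 input reads, the 27 with Dzip3 106, 64, 91 and 59, and the 45 with neither 84, 45, 47 and 45. The 115 with all 3 other peaks held 224, 167, 205 and 109 reads in a median length of 561 bp, at a median fold of 1.49. The median fold was 9.14 in the 411, 7.92 with Ring1B alone, 6.48 with Dzip3 alone and 5.63 with both. Among the 610 peaks without an input peak, 467 (76.6%, 73.0% to 79.7%) had more ubH2A than Ring1B in RPM, but only 36 of the 153 that overlapped a Ring1B peak did (23.5%, 17.5% to 30.8%). The 610 were called on ubH2A, which favours an excess of ubH2A reads. The 153 were also chosen by a Ring1B peak, which favours Ring1B reads. Over the 610 peaks, Spearman's rho of the ubH2A read density was 0.18 with Ring1B, 0.28 with Dzip3 and 0.08 with input DNA, a description of peaks that were all called on ubH2A in the same library.

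**Figure D3:**
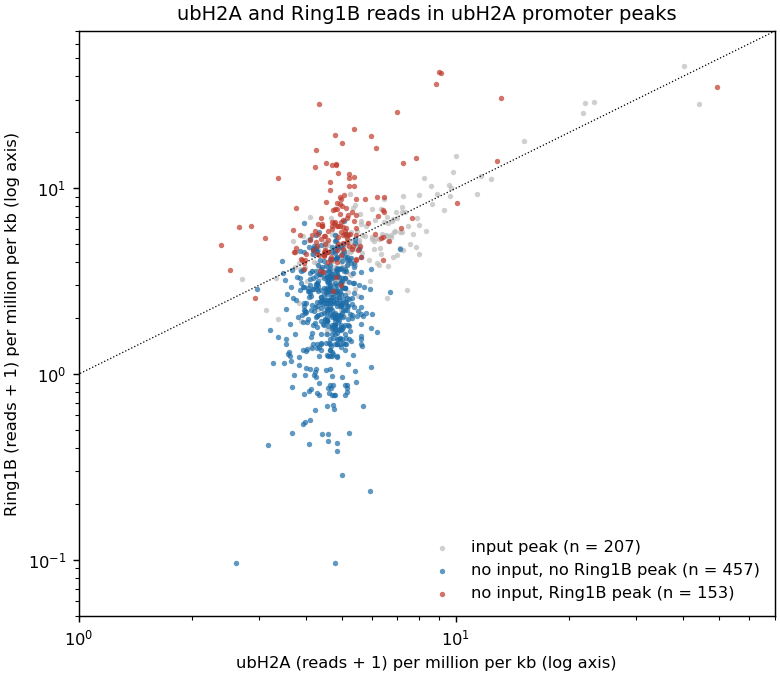
Each point is a ubH2A promoter peak, with its ubH2A reads plus 1 (x axis) and Ring1B reads plus 1 (y axis), both as RPM per kb of peak on log axes. Grey points overlap an input peak, blue ones neither an input nor a Ring1B peak and red ones a Ring1B but no input peak. Most points stand in a narrow column of ubH2A density around the median of 4.73 while Ring1B spreads widely, the dotted line marks equal densities, and 7 peaks lie outside the axes.

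The GC content of the ubH2A promoter peaks was between that of the other ubH2A peaks and that of the Ring1B promoter peaks. Its median was 51.4% (quartiles 46.4% and 56.7%), against 48.5% elsewhere and 61.5% in Ring1B promoter peaks. The density of CpG was far from that of Ring1B peaks, with a median of 1.00 CpG per 100 bases against 0.810 elsewhere and 5.98 in Ring1B promoter peaks. At least 3 CpG per 100 bases were found in 148 of the 817 peaks (18.1%, 15.6% to 20.9%), in 10.3% of those elsewhere (9.55% to 11.1%) and in 74.6% of Ring1B promoter peaks (73.2% to 76.0%). Of the 140 such CpG-rich ubH2A promoter peaks without an input peak, 57 lay within 500 bp of a TSS (40.7%, 32.9% to 49.0%) and 47 overlapped a Ring1B peak (33.6%, 26.3% to 41.7%). Of the 470 CpG-poor ones these were 88 (18.7%, 15.5% to 22.5%) and 106 (22.6%, 19.0% to 26.5%).

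Seen from Ring1B, the CpG-rich promoter peaks were the ones that rarely had a ubH2A peak. Of the 2778 Ring1B promoter peaks with at least 3 CpG per 100 bases, 64 overlapped a ubH2A peak (2.30%, 1.81% to 2.93%), and of the 945 with fewer CpG, 357 did (37.8%, 34.7% to 40.9%). Among those without an input peak, the counts were 57 of 2771 (2.06%, 1.59% to 2.66%) and 140 of 716 (19.6%, 16.8% to 22.6%). Repeated sequence differed as well. The median percentage of repeated 31-base words was 63.3% in the 197 of these with a ubH2A peak and 0% in the 3290 without. By CpG it was 0% in the 2771 and 3.00% in the 716. The parts of CpG and of repeated sequence in this contrast were not tested. The 2771 CpG-rich Ring1B promoter peaks had a median read density of 6.37 for Ring1B, 0.904 for ubH2A, 1.03 for Dzip3 and 0.152 for input DNA. In the 716 CpG-poor ones it was 5.90, 1.78, 2.06 and 0.408. The ubH2A density of 0.904 is below the 4.62 of the ubH2A promoter peaks without an input peak, which were called on ubH2A, and above the input density in the same peaks. The absence of a ubH2A peak means only that the height stayed below the list's lowest of 32 extended reads.

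Short motifs were counted on both strands in the 300 bases around each peak centre. CACGTG, the E-box bound by MGA and MAX of a variant PRC1, was in 78 of the 817 (9.55%, 7.72% to 11.8%), against 6.55% of all ubH2A peaks, 7.92% of Ring1B promoter peaks and 7.15% of 32851 RefSeq promoters of the same length (GRCm38.p6). TCCCGC, the core of the site of E2F6, was in 40 (4.90%, 3.62% to 6.60%), against 3.30%, 26.0% and 19.98%. CGCGCG was in 13 (1.59%, 0.932% to 2.70%), against 1.10%, 14.8% and 11.3%. TCCCGC and CGCGCG were thus rarer under ubH2A promoter peaks than under Ring1B promoter peaks. For CACGTG the intervals of 7.72% to 11.8% and 7.10% to 8.84% overlapped, and without input-overlapping peaks it was found in 75 of 610 ubH2A promoter peaks (12.3%, 9.92% to 15.1%) and 293 of 3487 Ring1B promoter peaks (8.40%, 7.53% to 9.37%). In the 153 of the 610 that overlapped a Ring1B peak it was in 14 (9.15%, 5.53% to 14.8%), an interval that overlaps that of Ring1B promoter peaks. No motif contains another, and a match is no evidence of binding.

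In lists of developmental genes, many of which carry Ring1B in these cells, 0 to 2 genes each had a ubH2A peak near their TSS. No ubH2A peak lay within 4 kb of any of 30 Hox cluster genes, 52 other developmental homeobox genes, 33 Sox and Fox genes or 16 T-box and Gata genes in the part of the genome where the list is complete. A Ring1B peak did at 25, 44, 26 and 13 of them, and a Dzip3 peak at 1, 2, 0 and 0. Of 25 proneural and other bHLH genes 1 had a ubH2A peak and 17 a Ring1B peak, and of 51 genes of Wnt, Fgf, Bmp and hedgehog ligands 2 and 25 did. The share over all genes is 3.37% for ubH2A and 9.73% for Ring1B, so counts of 0 to 2 in lists of 16 to 52 genes stand close to the ubH2A background, while the Ring1B counts stand far above theirs. The 118 Ring1B peaks near Hox genes, taken on all chromosomes, had a median read density of 6.46 for Ring1B, 0.677 for ubH2A, 0.745 for Dzip3 and 0.262 for input DNA. In the 265 near the other homeobox genes the medians were 6.86, 0.694, 0.737 and 0.207. All 118 and all 265 had more Ring1B than ubH2A in RPM, and none overlapped a ubH2A peak. They were called on Ring1B, which favours an excess of Ring1B reads. All 48 Ring1B peaks near genes named Zfp and all 33 near imprinted genes had more Ring1B too. Near olfactory and vomeronasal receptor genes 6 of 7 did, so the excess is not particular to developmental genes.

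**Figure D4:**
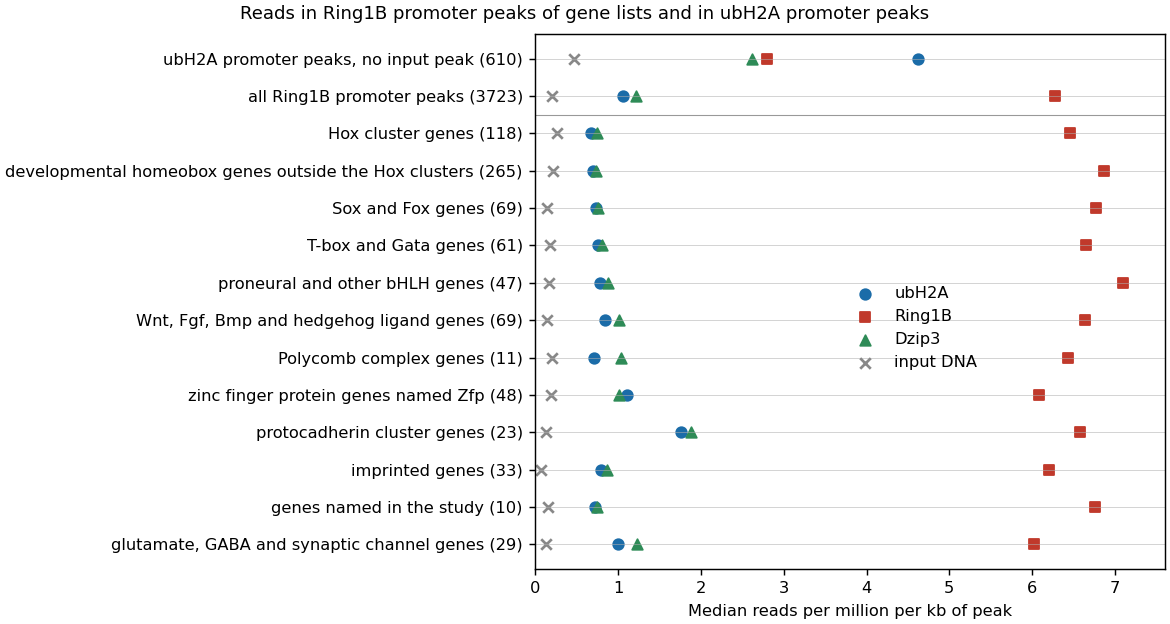
Median RPM per kb of peak (x axis) of the 4 libraries in ubH2A promoter peaks without an input peak, in all Ring1B promoter peaks and in the Ring1B promoter peaks of each gene list with at least 10 of them (y axis, number of peaks in brackets). Ring1B lies between 6.02 and 7.09 in the lists and ubH2A between 0.677 and 1.75, against 4.62 for ubH2A in its own promoter peaks. Each symbol is 1 library.

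A few developmental regulators did have a ubH2A promoter peak. Wnt7b, a ligand of neural and epithelial development, had it 25 bp from an annotated TSS in an intron, from 85408525 to 85408861 of chromosome 15, with 75 ubH2A, 197 Ring1B, 12 Dzip3 and 7 input reads and a fold of 6.50. Ring1B covered all of this peak and Dzip3 none of it. Wnt1, a ligand that patterns the midbrain, had a peak outside transcripts, from 98625840 to 98626157 of chromosome 15. The peak lay beyond the gene, which runs from 98620288 to 98624268, and the TSS 3718 bp away is a start inside the gene. This peak held 136 ubH2A, 122 Ring1B, 45 Dzip3 and 15 input reads at a fold of 5.73, and Ring1B covered 88.6% of it. Mesp2, a bHLH factor of somite formation, had a peak in its coding exon, 1866 bp from the TSS (chromosome 7 from 86957479 to 86957679), with 52 ubH2A, 22 Ring1B, 13 Dzip3 and 1 input read. No other library had a peak there. In read density Ring1B stood above ubH2A at Wnt7b (11.3 against 3.33) and Wnt1 (7.43 against 6.40) and below it at Mesp2 (2.12 against 3.88).

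Among 29 Polycomb complex genes 1 had a ubH2A peak, the PRC1-associated gene Scmh1. The peak, of which the sequence is given above, lay in a coding exon 307 bp from a TSS and held 62 ubH2A, 22 Ring1B, 33 Dzip3 and 1 input read. None of 13 genes of H2A ubiquitin ligases and deubiquitylases, 7 genes of cyclin-dependent kinase inhibitors, 21 naive pluripotency genes, 73 ribosomal protein genes and 10 genes named in the study had one. With 3.37% of all genes having a peak, 0 is within the reach of the background for lists of this size. Of 31 imprinted genes 1 did, Impact, a regulator of the kinase Gcn2, with 51 ubH2A, 36 Ring1B, 74 Dzip3 and 2 input reads in an intron. A Dzip3 peak covered 99% of it.

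Other families held a few. Of 65 replication-dependent histone genes 6 had a ubH2A peak (9.23%), but 5 of them share 2 peaks. The peak in the coding exon of Hist1h4i, an H4 gene, is also within 4 kb of Hist1h2ag and Hist1h2bj, and it held 76 ubH2A, 25 Ring1B, 65 Dzip3 and 1 input read at a fold of 30.5. The peak in the coding exon of Hist1h2af, an H2A gene, also lies near Hist1h3g and held 58, 14, 40 and 2 reads. Of the 31-base words in these peaks 83.4% and 48.2% occurred more than once, and the part of like sister genes in these reads was not tested. Of 343 genes named Zfp 14 had a ubH2A peak (4.08%, with Zfp319 under 2 gene identifiers), close to the background of 3.37%. Zfp358 and Zfp319 had theirs in coding exons that Ring1B covered whole, with 69 ubH2A and 106 Ring1B reads and with 70 and 74, while Zfp263 held 63 and 17 and Zfp316 85 and 52 outside any Ring1B peak. Of 1249 olfactory and vomeronasal receptor genes 3 had one, Olfr1331, Olfr55 and Olfr843 (0.240%). Olfr1331 held 70, 20, 26 and 1 reads and Olfr55, which Dzip3 covered whole, 61, 23, 68 and 11.

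In the protocadherin clusters, 2 of 24 genes had a ubH2A peak (8.33%, with 3.37% of all genes) and 12 a Ring1B peak (50%, with 9.73%). The peak of Pcdha11 held 62 ubH2A, 64 Ring1B, 47 Dzip3 and 0 input reads and that of Pcdhgc5 held 62, 137, 58 and 0. Ring1B covered 81.5% of the first and all of the second, and 81.2% and 51.8% of their 31-base words were repeated. Of 36 genes of glutamate and GABA receptors and synaptic channels 2 had one (5.56%, with 3.37% of all genes), a count too small to set the list apart. Grin1, the shared subunit of NMDA receptors, had a peak in an intron with 61 ubH2A, 4 Ring1B, 19 Dzip3 and 2 input reads, and another one with 64, 23, 19 and 3. Cacna1a, a channel of nerve terminals, had 92, 20, 14 and 4 in an intron. At both genes ubH2A was the highest library in RPM and no other library had a peak. These peaks were called on ubH2A, which favours an excess of ubH2A reads.

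The peaks with the highest fold and no input peak were at genes outside all of the lists. The highest fold, 164, was listed in an intron of Akap9, a scaffold of protein kinase A, where 163 ubH2A, 110 Ring1B, 148 Dzip3 and 0 input reads lay from 4066590 to 4067124 of chromosome 5. Pde9a, a cGMP phosphodiesterase, held 115, 75, 148 and 0 reads in an intron, and Csf2ra, the receptor for GM-CSF, 107, 115, 76 and 0 at 202 bp before its TSS. In these 3 peaks Dzip3 or Ring1B reads were of the same order as ubH2A. Rhob, a small GTPase, held 89, 37, 45 and 0 reads in its coding exon, in single-copy sequence with 10.3 CpG per 100 bases, and had a second peak with 55, 45, 38 and 0. Acp5, a phosphatase of osteoclasts, held 92, 60, 13 and 0 reads, Glmn 108, 22, 45 and 0, Fcgbp 90, 28, 51 and 0, Gm8223 83, 8, 55 and 0, and 1700029I15Rik, in a coding exon of Mapk8ip1, 90, 24, 34 and 0. In these 6 peaks, the first of Rhob included, ubH2A was the highest library in RPM and neither Ring1B nor Dzip3 had a peak. They were called on ubH2A and picked by its fold, which favours an excess of ubH2A reads. Repeated 31-base words made up 100% at Fcgbp, 86.7% at Glmn, 74.3% at Gm8223, 21.9% at Acp5 and 0% at Rhob and 1700029I15Rik. Where in the genome the reads listed at Fcgbp, Glmn and Gm8223 arose is therefore uncertain. Of these 10 peaks 9 had no input read, so their folds are their reads plus 1, and the exception was Dyrk4.

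Dyrk4, a protein kinase gene, had the highest peak without an input peak, at 5.68 RPM, in an intron 2777 bp from an annotated TSS inside the gene. It held 761 ubH2A, 416 Ring1B, 577 Dzip3 and 4 input reads, at a fold of 107. Of its 31-base words 91.0% occur more than once in mm9, with a median of 10587 occurrences, so where in the genome these reads arose is uncertain. Next in height came the peak upstream of Tmem125 with 1593 ubH2A, 2850 Ring1B, 1407 Dzip3 and 96 input reads, which at 1803 bp was also the longest without an input peak. The mucin gene Muc19, annotated under 2 gene identifiers, had 5 peaks, with 74, 689, 576, 403 and 168 ubH2A reads from upstream to downstream against 177, 2423, 1818, 1452 and 481 Ring1B reads. At Tmem125 and at each of the 5 Muc19 peaks Ring1B was the highest library, and Tmem125 with 4 of the Muc19 peaks held the most Ring1B reads of all without an input peak. Their words were repeated too, 77.8% at Tmem125 and 73.5% to 97.2% at Muc19. Gm17621 held 293, 246, 275 and 6 reads in sequence with 100% repeated words. Thada held 403, 276, 243 and 40 and Btnl2 304, 246, 204 and 4 over 1133 and 883 bp. With both a Ring1B and a Dzip3 peak, 1700101I19Rik held 72, 90, 102 and 0 reads and Fkbp14 69, 60, 104 and 0.

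**Figure D5:**
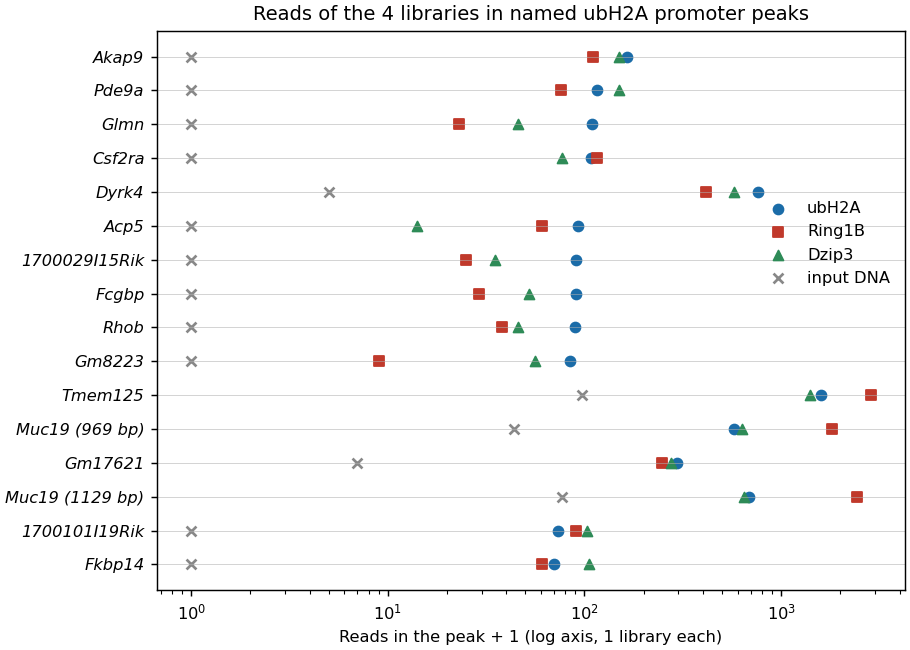
Reads plus 1 (x axis, log) of the 4 libraries in the ubH2A promoter peaks with the highest fold, the highest RPM and the highest fold with both a Ring1B and a Dzip3 peak, all without an input peak (y axis, gene with the nearest TSS). Each symbol is 1 library. Input DNA is at 0 reads in most of them, and Ring1B stands above ubH2A at Tmem125 and Muc19.

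Many of the peaks came from a few arrays of like genes. In 12 windows of 1 Mb with at least 10 members each lay 228 of the 817 peaks (27.9%). The gene with the most was C130026I21Rik on chromosome 1, with 31 member peaks, of which 29 overlapped an input peak. Their median fold was 1.49 and their median reads were 204 ubH2A, 148 Ring1B, 187 Dzip3 and 87 input. On chromosome 5, 4930572O03Rik and Gm17019, beside the Speer4 genes of spermatogenesis, had 8 each, with median folds of 1.39 and 1.91. Gm3115 on chromosome 14 had 8, all with an input peak, at 1.09. Tmem181b-ps on chromosome 17 stood apart, because none of its 13 peaks overlapped an input peak, 9 overlapped a Ring1B peak and 7 a Dzip3 peak, and its median fold was 3.22 with 85 ubH2A, 78 Ring1B, 77 Dzip3 and 17 input reads. In the 12 windows together the median fold was 1.66 and the median share of repeated words 90.5%, against 8.29 and 5.18% for the 589 members outside them. The part of repeated sequence in these values was not tested.

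Reads were also concentrated in very few peaks. The 817 members held 3254375 ubH2A reads in total, and 96.4% of them lay in 4 peaks, 2 near Gm10800 and 1 near Gm10801 on chromosome 2 and 1 near Gm11167 on chromosome 9. At Gm11167 a stretch of 38544 bp held 1128410 ubH2A, 678913 Ring1B, 775003 Dzip3 and 3111720 input reads, a fold of 0.237. All 4 overlapped an input peak and had a fold between 0.237 and 0.625, so input DNA was the highest there per read sequenced.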

How the data were processed

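ChIP-seq was analysed from the peak lists of 4 libraries, 1 each for ubH2A, Ring1B, Dzip3 and input DNA, of mES cells in 2i + LIF. Alignment to mm9 and peak calling, library by library in the Partek Genomics Suite, were done by the authors. For fragmentation the labels name a Picoruptor and the methods micrococcal nuclease. The authors deposited, for each peak, counts of reads of the 4 libraries, the height in extended reads and as RPM, a p-value (not used here), the scaled fold (ratio) to input DNA and the percent of the peak covered by peaks of the other libraries. Rows with other than 18 fields were left out, 1 each in the ubH2A and input lists.

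TSSs were those of protein-coding genes in GENCODE M1 (mm9). Overlap means at least 1 bp, from the listed percentages, which gave the same answer as the lists for all 6642 ubH2A peaks with Ring1B and with Dzip3. Library sizes are extended reads over RPM. The listed fold scales input reads by 1.53, where these sizes give a ratio of 1.39. Listed starts were taken as the first base and listed ends as the base after the last. GC, CpG and 31-base words were read from the mm9 sequence, up to 3000 bases a peak. Positions are given as listed. No p-value was computed, because peaks are not replicates.

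The peaks, gene lists and alternatives were chosen with earlier results of these data known. Named are, without an input peak, the 10 peaks of highest fold, the 5 of highest RPM, the 5 longest, the 5 of highest fold with Ring1B and Dzip3 and the 5 with the most Ring1B reads, further the 5 genes with the most peaks and up to 5 genes of each list with a peak. The crowded windows, the classes of repeated words and the peaks near the 4 kb limit, and motifs and CpG classes of Ring1B promoter peaks without input peaks, were added after seeing the data. On simulated data all 2000 known distances were recovered. Scripts ran in Python 3.11.15 with pandas 2.3.3, numpy 2.4.6, scipy 1.17.1, matplotlib 3.10.9 and numba 0.67.0.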

Additional observations from a re-analysis of the deposited data

How the results depend on the processing

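The absence of replicates limits every value to these libraries. No paired analysis was possible because each target has a single library. Of 60 values under alternatives, 29 stayed within the interval of the reported value, or within 1.5 times of it for counts, and 31 moved. The cause was not tested, apart from shorter or longer distances and stricter rules, which take in fewer or more peaks by construction.

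Without input-overlapping peaks, the share with a Ring1B peak moved from 35.3% to 25.1%, that with a Dzip3 peak from 32.3% to 20%, the median fold from 5.73 to 8.14 and the median GC content from 51.4% to 54.0%. With a fold of at least 2 required, the shares with Ring1B, Dzip3 and input peaks were 28.6%, 23.4% and 5.84% and the median fold 8.11. Within 1 kb there were 271 peaks at 243 genes, with 41.0% overlapping a Ring1B and 21.4% an input peak, a median fold of 6.50 and a GC content of 54.5%. Within 10 kb there were 1607 peaks at 1289 genes with a GC content of 50.7%. With the most upstream TSS of each gene alone, 402 genes had a peak. On chromosomes with a complete ubH2A list, 22.4% overlapped an input peak.

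After seeing the data, the 12 crowded windows were left out, which gave 26.3%, 21.9% and 8.83% with Ring1B, Dzip3 and input peaks, a median fold of 8.29 and a GC content of 53.8%. With under 5% of repeated words, 294 peaks at 297 genes remained, with 12.6%, 4.42% and 2.38%, a median fold of 10.4 and a GC content of 55.6%. Of the alternatives run, this one moved the overlaps with Ring1B and Dzip3 the most. An overlap of at least 50%, the peak centre within 4 kb, the nearest gene alone and a fold recomputed from the library sizes left every value they were applied to within these limits.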

Other observations

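The members include 2 peaks on the mitochondrial chromosome, which carries no histones. The one at mt-Co1 held 77 ubH2A, 28 Ring1B, 68 Dzip3 and 20 input reads at a fold of 2.47, and the one at mt-Nd5 held 68, 43, 57 and 18 at 2.42. The peak near Olfr843 was the only member with fewer ubH2A reads, 26, than extended reads in its highest window, 309, and its fold was 0.689.

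Symbols that are model or clone numbers (Gm or Rik) made up 163 of the 640 genes with a member peak (25.5%, 22.2% to 29.0%), 105 of the 575 with a member outside the crowded windows (18.3%, 15.3% to 21.6%) and 15.9% of all genes analysed. Of genes with a Ring1B peak within 4 kb they were 13.0% (11.5% to 14.6%).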
